A study of Mus musculus with 7 samples.

Results

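Cardiac mesenchymal progenitors (CMPs) grown from mouse heart tissue kept after death were set against CMPs grown from the hearts of living mice. The comparison uses 4 of the 7 arrays of the series, chosen by their source label: 2 of postmortem tissue, from atrium and ventricle, and 2 of living tissue, likewise from atrium and ventricle, with 1 array each. All 4 cultures were from adult C57BL/6 mice and were grown on collagen I coated dishes, where the medium held 10% fetal bovine serum and bFGF, a fibroblast growth factor, at 40 ng/ml. The series' design text gives 24 h at 4 °C after the words on postmortem tissue and is read here as the storage of that tissue only. The other 3 arrays, used to help estimate the spread and as a reference for cell type markers, held bought RNA of whole adult heart (1 array) and RNA of whole fetal hearts at embryonic day 16.5. One fetal array was of wild type C57BL/6 and the other of the transgenic line C57BL/6-Tg(Myh6-EGFP)MG2, whose reporter is driven by the promoter of a cardiomyocyte myosin gene. Each single-colour Agilent expression array took Cy3-labelled RNA made from 250 ng. All 7 arrays lay on 1 slide and were read in 1 scan.

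Mesenchymal progenitors of the heart are fibroblast-like stromal cells that attach to plastic, divide in culture and make collagen-rich matrix. They also act on their surroundings through secreted cytokines, chemokines and growth factors, many of which are switched on by the NF-kappa B transcription factors when a cell meets an inflammatory signal. Tissue kept cold after death is cut off from oxygen and nutrients until it is put in culture, so the cells that grow out have passed through that state.

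The level of a gene is given as the log2 processed signal of its probe minus the 75th percentile of its array, so 1 unit is a 2-fold difference, and levels are compared between arrays for the same probe only. A probe counted as measured on an array where the scanner software marked it well above background. Differences are postmortem minus living, tested with limma, and the pair differences are the same subtraction within the atrial and within the ventricular arrays. Of 34792 gene names on the array, 19011 were tested, and 17514 of these were well above background on all 4 CMP arrays. The labels do not say that the 4 cultures came from separate animals, so the p-values measure only the spread between these samples.

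Of the 4 CMP arrays, that of postmortem atrium stood apart. Its level lay at least 2-fold from the median of the other 3 for 2807 genes (14.8%), against 872 genes (4.59%) for the postmortem ventricular, 938 (4.93%) for the living atrial and 1097 (5.77%) for the living ventricular array. Across the genes tested, it correlated with the others at r = 0.945 to 0.963, while the other 3 correlated with each other at r = 0.984 to 0.987. The ventricular pair does not use that array, so named genes are given with their level on every array or with both pair differences, the atrial one first.

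The cell type label was checked against marker genes. All 10 stromal markers (Pdgfra, Thy1, Col1a1, Col1a2, Col3a1, Eng, Cd44, Ly6a, Nt5e and Vim) were well above background on all 4 CMP arrays, with median levels of 7.6 and 6.58 on the postmortem atrial and ventricular arrays and 6.74 and 6.72 on the living ones. Of 6 cardiomyocyte markers, Myh6, Tnni3 and Actc1 were not well above background on any CMP array. Tnnt2 was measured on all 4, at 4.02 and 2.73 on the postmortem and 4.10 and 0.11 on the living arrays. Nppa was measured on the postmortem arrays alone, and Ryr2 on the postmortem atrial and living ventricular arrays. The median of the 6 was between -4.84 and -4.04 on the CMP arrays against 8.25 to 9.61 on the whole hearts. Of 5 macrophage or leukocyte markers, Emr1 was not measured on any CMP array and Ptprc on the living ventricular array only, at -3.24, while Cd68, Csf1r and Cd14 were measured on all 4. Of 7 cardiac progenitor or regulator markers, Gata4, Tbx20, Nkx2-5, Mef2c and Hand2 were measured on all 4. Isl1 was measured on the postmortem atrial array only, at -3.36, and Kit on all CMP arrays but that one.

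The first question was which genes differed between postmortem and living CMPs whatever the chamber. In the limma fit, 20 of 19011 genes passed an adjusted p of 0.05 (0.105%), 1 higher (0.00526%) and 19 lower (0.0999%) in postmortem CMPs. An unadjusted p under 0.05 was found for 1076 genes higher (5.66%) and 1024 lower (5.39%). Without either of the fetal arrays no gene passed by limma, although 2260 and 2259 genes had an unadjusted p under 0.05, and none passed with the 4 CMP arrays alone.

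Tmem204, a membrane protein of the claudin kind, was the single gene higher. Its level was 2.32 on the postmortem atrial and 1.17 on the postmortem ventricular array, against -1.96 and -2.29 on the living arrays, so the 2 states did not overlap. The difference was 3.87 ± 0.29 (SE, n = 2 arrays per state, adjusted p = 0.0361), from a probe at chr17:25195330-25195389 (build mm9, as are all probe positions here).

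Gpc3, a glypican, which is a heparan sulphate proteoglycan of the cell surface that binds growth factors and morphogens, fell in postmortem CMPs. Its level was -6.18 and -5.39 on the postmortem arrays, where it was not well above background, and -0.21 and -0.60 on the living arrays. The bright mean against the background limit made it at least 15-fold lower (adjusted p = 0.0361), at chrX:49625740-49625799. Chrdl2, a chordin-like antagonist of bone morphogenetic proteins (BMPs), followed the same pattern. It was at -6.21 and -6.57 on the postmortem arrays, not well above background, and at 0.17 and -1.13 on the living arrays, which made it at least 14.3-fold lower (adjusted p = 0.0427), at chr7:107183146-107183205. For such genes the dim side was set, per array, to the higher of the probe's own signal and the lowest signal among probes well above background. The folds given as at least hold by that limit only, since some probes above it were not marked well above background. Gpc3 and Chrdl2 entered the test through the living arrays alone. Each adjusted p is that of the difference of the signals as read, not of the bound.

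Emb, a membrane glycoprotein of the immunoglobulin family, fell by 2.33 ± 0.21 on the log2 scale (adjusted p = 0.0464), from 5.15 and 5.11 on the living arrays to 3.1 and 2.50 on the postmortem arrays. Pip5k1a, a kinase that makes the membrane lipid PIP2, and Wdr92, a WD repeat protein, were also among the 19. The Pip5k1a probe fell by 2.71 ± 0.20 (adjusted p = 0.0361), but 2 other probes of that gene differed by -0.44 and 0.08, so its probes disagreed. The Wdr92 probe, at 5.20 and 5.95 on the postmortem and 8.17 and 8.89 on the living arrays, fell by 2.95 ± 0.18 (adjusted p = 0.0361).

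The remaining 14 genes that fell carry clone, transcript or probe names, and many of their probes are versions of the same repeated sequence. Of the 19 lower genes, 12 had a probe that shared at least 20 bases in a row with the probe of another, in 4 sets spread over 9 chromosomes. Some are shown because a shared probe sequence means that these 12 calls are not 12 separate genes measured apart from each other. Of these sets, 2 are given here, with the shared stretch in capitals.

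One set held the transcripts BB713741, at chr13:68498549-68498608, and Gm19809, at chr17:36213266-36213324, with 28 bases in common:
BB713741: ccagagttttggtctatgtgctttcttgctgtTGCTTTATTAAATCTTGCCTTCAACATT
Gm19809: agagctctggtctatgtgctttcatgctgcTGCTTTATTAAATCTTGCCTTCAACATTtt

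Another set joined unnamed probes on chromosomes 7 and 16, which also shared 28 bases:
A_55_P2090505: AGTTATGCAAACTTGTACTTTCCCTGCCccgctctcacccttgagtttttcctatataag
A_55_P2051596: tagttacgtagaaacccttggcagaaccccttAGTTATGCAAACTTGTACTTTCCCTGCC

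The Wdr92 probe matched A_55_P2090505 at 80.4% of 56 aligned bases. The 12 probes fell by similar amounts, with differences between -2.91 and -2.11. For example, Gm19809 was at 5.97 and 7.06 on the postmortem and 8.57 and 9.31 on the living arrays, and fell by 2.42 ± 0.20 (adjusted p = 0.0427). A further 3 probes of the array that share at least 20 bases with these differed by -2.34 to -1.90. Signal from related copies cannot be told apart on these probes.

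The second question was how far the atrial and the ventricular pair gave the same postmortem difference across all genes. The pair differences correlated at r = 0.397 (Spearman's rho = 0.384) over 19011 genes, which are not independent replicates, and 63.8% of genes had the same sign in both pairs. For the 17514 genes measured on all 4 CMP arrays the correlation was r = 0.349, with the same sign for 63.3%. With no filter on dim probes it was r = 0.147. The pairs share no array, but all 4 arrays share the slide. For comparison, the ventricular minus atrial differences of the postmortem and of the living arrays, which use the same 4 arrays, correlated at r = 0.288, with the same sign for 60.3% of genes. When genes were split into 4 equal bins by level, the correlation was r = 0.394, 0.328, 0.411 and 0.533 from the lowest to the highest bin.

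**Figure D1:**
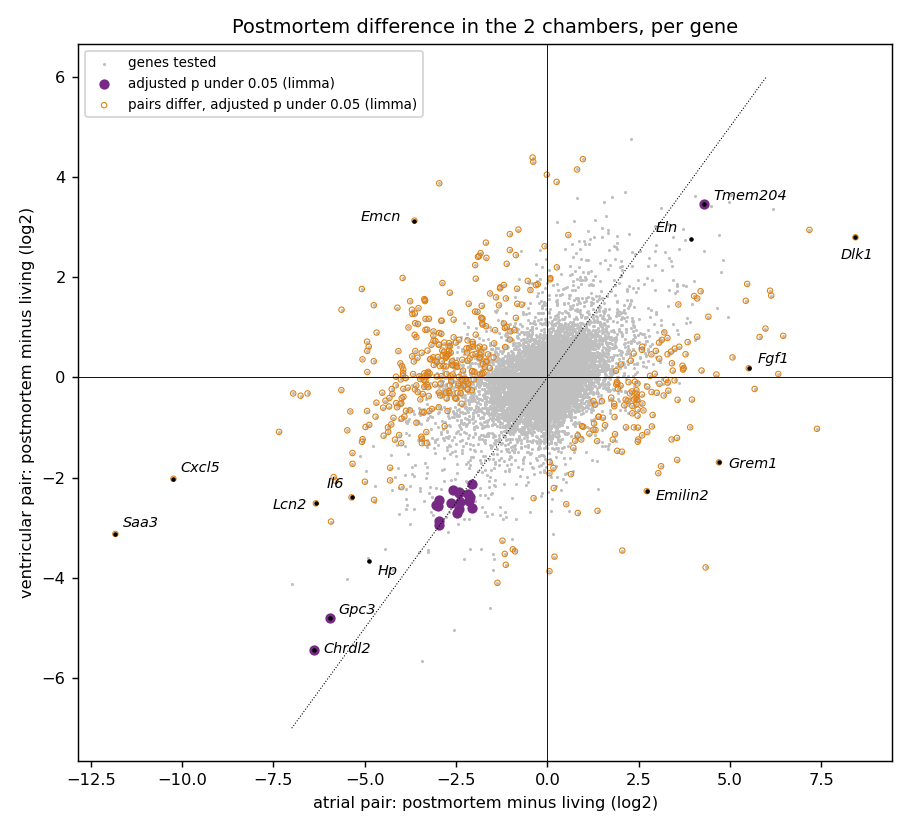
Postmortem minus living difference (log2) in the atrial pair (horizontal axis) and in the ventricular pair (vertical axis) for 19011 genes. Purple points are the 20 genes with an adjusted p under 0.05, orange circles the 458 genes whose pairs differed from each other, and the dotted line marks equal differences. The cloud is wider along the atrial axis (SD 0.923) than along the ventricular axis (SD 0.569).

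The atrial pair held the larger differences. It had 2878 genes at least 2-fold apart (15.1%) and the ventricular pair 1203 (6.33%). Of the genes at least 2-fold lower in the atrial pair (1730), 327 were also at least 2-fold lower in the ventricular pair, which is 18.9% of the atrial and 49.2% of the ventricular genes. Of those at least 2-fold higher (1148), 248 were shared, which is 21.6% of the atrial and 46.0% of the ventricular genes. Of the 146 genes at least 4-fold lower in the ventricular pair, 87.0% were also lower in the atrial pair. In opposite directions 105 genes (0.552%) were at least 2-fold apart, against 248 (1.3%) higher and 327 (1.72%) lower by that much in both pairs. A gene dim in 1 state was tested only if measured on both arrays of the other, which selects for the same side in both pairs. Among the 17514 genes measured on all 4 CMP arrays, 122 were that much higher and 205 lower in both pairs, and 70 were opposite. When the squared differences among the 4 arrays were summed over genes, source state took 44.1%, chamber 35.0% and their interaction 20.9%.

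Among named genes well above background on all 4 arrays, those with the lowest difference in both pairs included secreted proteins of the acute phase response. Hp encodes haptoglobin, which binds free haemoglobin. Its level was 1.21 and 3.14 on the postmortem atrial and ventricular arrays against 6.10 and 6.79 on the living arrays, a difference of -4.27 ± 0.54 (adjusted p = 0.106). Saa1, a serum amyloid A protein, was at 0.40 and 1.83 against 4.46 and 4.57 (difference -3.40 ± 0.34, adjusted p = 0.0627). Lcn2, a lipocalin that binds bacterial iron carriers, was at 0.74 and 3.70 against 7.08 and 6.21 (difference -4.43 ± 0.83, adjusted p = 0.217). Il6, the cytokine interleukin 6, was at -0.29 and 3.55 against 5.07 and 5.95 (difference -3.88 ± 0.70, adjusted p = 0.206). In all 4 of these genes both postmortem arrays lay below both living arrays, and none passed the test. Of all genes tested, 20.1% lay so. These genes were chosen by the smaller of their pair differences, which favours such a gap.

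Genes of metal binding, detoxification and signalling stood beside them. Mt2, a metallothionein that binds zinc and copper, was at 5.47 and 6.35 on the postmortem and 8.71 and 8.67 on the living arrays (difference -2.78 ± 0.28, adjusted p = 0.0627). Mgst2, a glutathione transferase of membranes, differed by -3.19 ± 0.38 (adjusted p = 0.0844, pairs -3.83 and -2.54), and Dpep1, a dipeptidase, by -2.77 ± 0.37 (adjusted p = 0.132, pairs -3.15 and -2.39). Adcy5, an adenylyl cyclase, differed by -3.24 ± 0.42 (adjusted p = 0.119, pairs -3.87 and -2.62), and its 2 other probes by -3.97 and -3.41. Avpr1a, a vasopressin receptor, had pair differences of -3.19 (atrial) and -2.70 (ventricular). Olr1, a receptor for oxidised lipoprotein, differed by -2.70 and -2.68. Aldoc, a glycolytic aldolase, differed by -3.06 and -2.50, and Gm1987, a predicted gene, by -2.46 and -2.43. In these 8 genes, chosen in the same way, the postmortem arrays again lay below the living arrays.

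The genes with the highest difference in both pairs encode mainly matrix, adhesion and membrane proteins. Eln, the elastic fibre protein elastin, was at 4.27 on the postmortem atrial and 0.54 on the postmortem ventricular array, against 0.33 and -2.21 on the living arrays (difference 3.35 ± 0.33, adjusted p = 0.0627). Itga8, an integrin subunit, was at 3.45 and 0.73 against -0.15 and -1.82 (difference 3.08 ± 0.42, adjusted p = 0.134). Etl4, which has an adjusted p of 0.0627, was at 2.23 and 0.16 against -1.21 and -2.64, and its 2 other probes differed by 2.30 and 3.22. Besides Tmem204 no gene of these passed the test. For Eln the atrial arrays lay above the ventricular arrays in both states, as they did for Itga8 and Etl4.

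Colec11, a collectin that recognises sugars, was at 3.83 and 3.02 on the postmortem and 0.61 and 0.53 on the living arrays (difference 2.86 ± 0.33, adjusted p = 0.0844). Ano1, a calcium-activated chloride channel, had pair differences of 2.54 (atrial) and 2.52 (ventricular), and Plvap, a protein of endothelial diaphragms, by 2.01 and 2.05. Omd, a small proteoglycan of bone, differed by 3.13 and 2.14, and Perp, a protein of cell junctions, by 3.40 and 2.21. Ppl, a plakin of cell junctions, differed by 2.74 and 1.98, Glt8d2, a glycosyltransferase domain protein, by 2.86 and 1.95, and Fgl2, a fibrinogen-like protein, by 1.89 and 2.68. Plin4, a coat protein of lipid droplets, was uneven, at 4.70 and -0.72 on the postmortem and 0.68 and -2.64 on the living arrays. The states overlapped for Ano1, Plin4, Plvap, Ppl and Fgl2, since the living atrial array lay above the postmortem ventricular one.

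**Figure D2:**
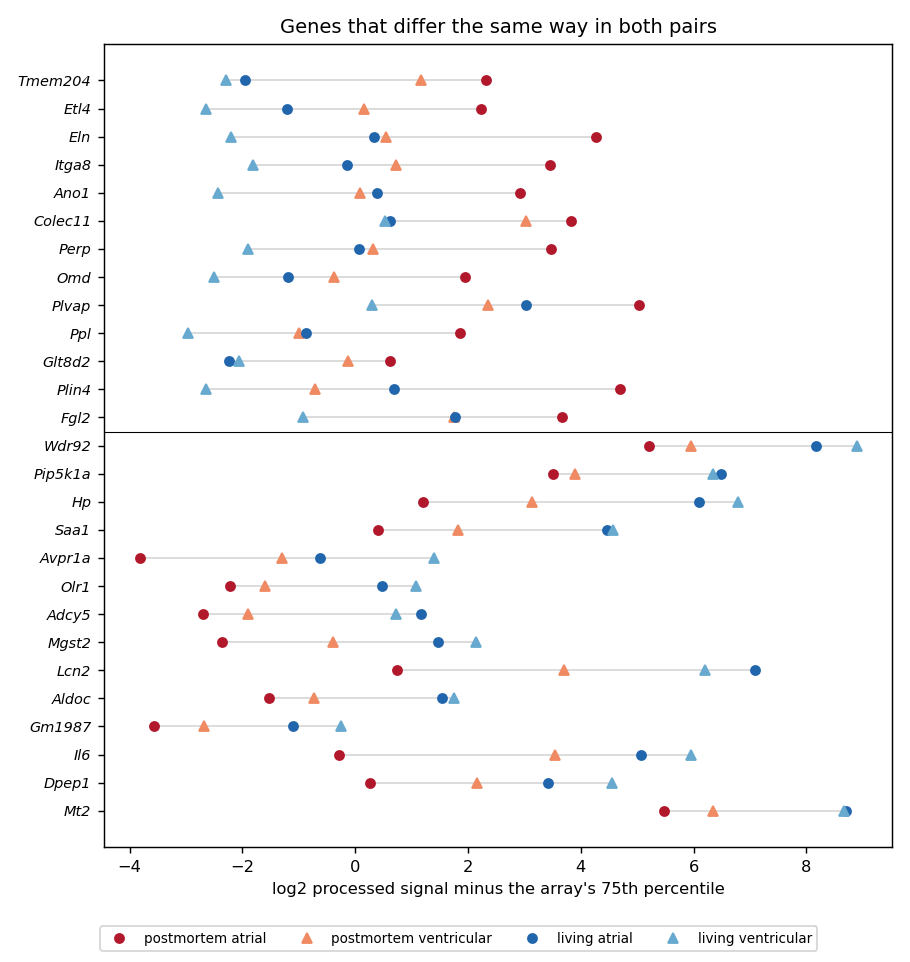
Level on each of the 4 CMP arrays (horizontal axis, log2 processed signal minus the 75th percentile of the array) for 13 of the genes highest and the 14 genes lowest in both pairs. Red and orange are postmortem and blue is living. Circles are atrial and triangles ventricular. Among the lowest genes the postmortem symbols lie to the left, and Tmem204 and Colec11 have gaps between the states.

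Some named genes were measured on both arrays of 1 state and on neither of the other. They entered the test through that state alone. Each adjusted p given for them here and in the next paragraph is that of the signals as read, not of the bound. Besides Gpc3 and Chrdl2, the largest bounds among lower genes were for Rbp4, the carrier of retinol in blood, and Slc36a2, an amino acid transporter. Rbp4 was at -6.32 and -5.09 on the postmortem and -0.84 and -1.07 on the living arrays (at least 10.3-fold lower, adjusted p = 0.259). Slc36a2 was at -5.09 and -6.61 against -1.64 and -0.95 (at least 8.13-fold lower, adjusted p = 0.106). Rspo3, a secreted enhancer of Wnt signalling, was at -4.08 and -4.46 on the postmortem and -1.16 and -1.88 on the living arrays. It was 6.70-fold lower by the signals as read, with the same value by the limit (adjusted p = 0.0675). Tnfsf8, the ligand of CD30, was at -6.13 and -5.88 against -1.23 and -2.22 (at least 6.03-fold lower, adjusted p = 0.0784).

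Of the genes measured on both postmortem arrays alone, Dlk1 had the largest bound. Dlk1 is an imprinted membrane protein of the Notch ligand type, known from fetal tissues and preadipocytes. It was at 3.80 on the postmortem atrial and -2.78 on the postmortem ventricular array and at -4.63 and -5.58 on the living arrays, which made it at least 23-fold higher (adjusted p = 0.274). Most of that lies in the atrial array. Cytl1, a small cytokine-like protein, was at 0.62 and -2.43 against -4.36 and -5.93 (at least 8.64-fold higher, adjusted p = 0.0785). Masp1, a protease of the lectin pathway of complement, was at -0.18 and -1.64 against -4.46 and -4.15 (at least 8.62-fold higher, adjusted p = 0.163). Akr1c19, an aldo-keto reductase, was at -0.98 and -1.65 against -6.01 and -5.28 (at least 6.49-fold higher, adjusted p = 0.206), and Camk1d, a calcium-dependent kinase, at -0.94 and -2.15 against -4.48 and -4.02 (at least 5.54-fold higher, adjusted p = 0.240). For Kcnn4, a potassium channel, the bound of at least 8.55-fold (adjusted p = 0.382) rests on the postmortem atrial array, since it was at 2.09 there and at -3.59 on the postmortem ventricular array, against -3.72 and -4.40 on the living arrays.

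Gene lists were described by the median difference of their tested members and by how many lay on the same side in both pairs. Over all genes tested the median difference was 0.006, 33.6% of genes were higher in both pairs, 30.2% lower in both and 36.2% opposite. Both postmortem arrays lay above both living arrays for 23.9% of genes and below them for 20.1%.

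**Figure D3:**
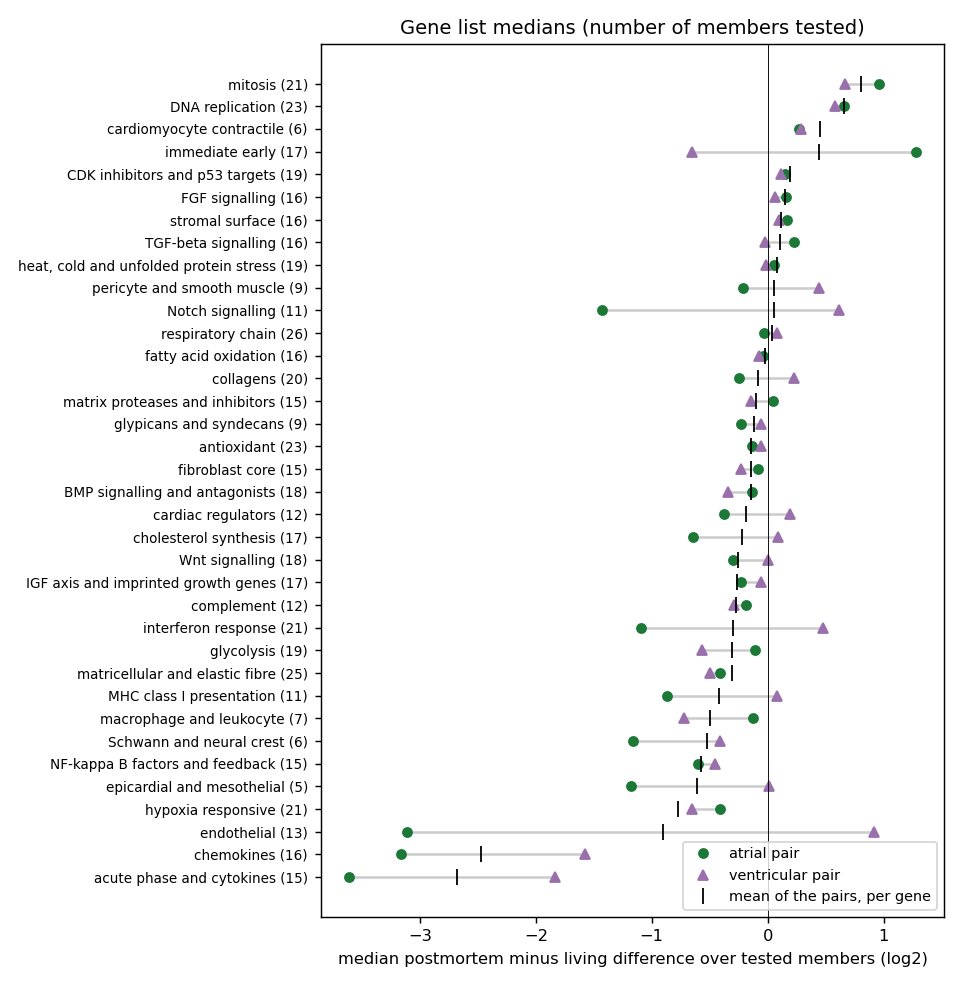
Median postmortem minus living difference (log2, horizontal axis) of 36 gene lists, with the number of members tested in brackets. Green circles are the atrial pair, purple triangles the ventricular pair and black bars the median of the per-gene mean of both pairs. Mitosis and DNA replication genes have positive medians in both pairs, acute phase genes and chemokines negative ones, and endothelial genes have medians of -3.11 and 0.91 on either side of 0.

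Genes of cell division were higher in both postmortem cultures by small amounts. All 23 DNA replication genes were tested, and 22 of them were higher in both pairs, with a median difference of 0.66 (0.66 atrial and 0.59 ventricular). For 21 of them both postmortem arrays lay above both living arrays. The exception on sign was Tyms, the enzyme that makes thymidylate, named after its values were seen, which differed by -0.32 and -0.18. Of 23 mitosis genes, 21 were tested, and all 21 were higher in both pairs, with a median of 0.80 (0.97 and 0.67), and for 20 of them the states did not overlap. One of the 21, Ttk, was tested through the postmortem arrays alone. The other 20, measured on all 4 arrays, were higher in both pairs as well, with a median of 0.79. None of the 44 passed the test after adjustment.

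Cenpa, the histone that marks centromeres, was at 2.38 and 2.11 on the postmortem and 0.59 and 1.16 on the living arrays (difference 1.37 ± 0.24, adjusted p = 0.206). Gins2, a subunit of the replicative helicase, was at 1.30 and 1.09 against -0.10 and -0.26 (difference 1.37 ± 0.28, adjusted p = 0.253). Mcm5 and Mcm6, of the ring-shaped core of that helicase, differed by 1.01 ± 0.26 (adjusted p = 0.308, pairs 1.12 and 0.91) and 0.84 ± 0.16 (adjusted p = 0.219, pairs 0.85 and 0.83). Birc5, or survivin, and Kif20a, a kinesin of the dividing cell, differed by 1.00 ± 0.16 (adjusted p = 0.193, pairs 1.12 and 0.87) and 1.01 ± 0.17 (adjusted p = 0.203, pairs 1.05 and 0.97). Cenpe, a kinetochore motor, and Top2a, the topoisomerase that untangles chromosomes, each differed by 0.97 (pairs 0.98 and 0.96 for Cenpe, pairs 0.97 and 0.97 for Top2a). Rfc3, of the clamp loader, and Pola1, of the priming polymerase, differed by 0.90 (pairs 0.98 and 0.81) and 0.81 (pairs 0.66 and 0.96).

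Secreted inflammatory genes were lower in postmortem CMPs, and more so in the atrial pair. Of 20 chemokines, 16 were tested, of which 13 were lower in both pairs, 2 higher in both and 9 at least 2-fold lower in both, with a median of -2.47 (-3.16 atrial and -1.58 ventricular). Of the 12 measured on all 4 arrays, 10 were lower in both pairs. The 2 higher ones, named after their values were seen, were Cx3cl1 (pairs 2.01 and 0.26) and Cxcl9 (not well above background on the living arrays). Cxcl5, which attracts neutrophils, was at -1.91 on the postmortem atrial and 6.65 on the postmortem ventricular array, against 8.33 and 8.67 on the living arrays (difference -6.13 ± 1.77, adjusted p = 0.338). Cxcl1, of the same group, was at -0.11 and 4.29 against 5.69 and 6.35 (difference -3.93 ± 0.84, adjusted p = 0.258). Ccl7, which attracts monocytes, was at 1.26 and 5.65 against 6.34 and 6.94 (difference -3.18 ± 0.82, adjusted p = 0.308). In each of these 3 the postmortem atrial array was far below the rest and the postmortem ventricular array was below both living arrays by less.

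Cxcl2 and Ccl11 were not well above background on the postmortem atrial array. Cxcl2 was at -3.20 on the postmortem ventricular array and at -1.17 and -1.34 on the living arrays. Ccl11, or eotaxin, was at -3.77 there against -2.56 and -0.85.

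Of 22 acute phase and cytokine genes, 15 were tested, 14 of them lower and none higher in both pairs, with a median of -2.68 (-3.61 and -1.84). Of the 12 measured on all 4 arrays, 11 were lower in both. Saa3, a serum amyloid A protein made outside the liver, was not well above background on the postmortem atrial array, at -5.23, and was at 3.48 on the postmortem ventricular and 6.60 and 6.61 on the living arrays (adjusted p = 0.300). None of the chemokines or acute phase genes passed the test for source state. The 5 macrophage or leukocyte markers had median levels of -1.55 and -1.18 on the postmortem and -1.28 and -0.45 on the living arrays, and their part in these differences was not tested.

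Transcription factors and feedback genes of the NF-kappa B pathway were lower by less. All but 1 of 16 were tested, and 13 of the 15 were lower in both pairs, with a median of -0.57 (-0.60 and -0.46). For 12 of them both postmortem arrays lay below both living arrays. Tnfaip3, a deubiquitinase that damps the pathway, was at 0.81 and 0.98 on the postmortem and 2.53 and 2.28 on the living arrays (difference -1.51 ± 0.23, adjusted p = 0.178). Nfkbia, the inhibitor that holds NF-kappa B in the cytoplasm, was at 4.25 and 4.52 against 5.4 and 5.37 (difference -1.0 ± 0.19, adjusted p = 0.234). Bcl3, a nuclear cofactor, differed by -1.12 ± 0.23 (adjusted p = 0.257, pairs -1.39 and -0.84), Tnip1, a partner of Tnfaip3, by -0.85 ± 0.27 (adjusted p = 0.371, pairs -1.32 and -0.37), and Icam1, an adhesion molecule for leukocytes, by -0.78 ± 0.24 (adjusted p = 0.362, pairs -0.76 and -0.79).

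**Figure D4:**
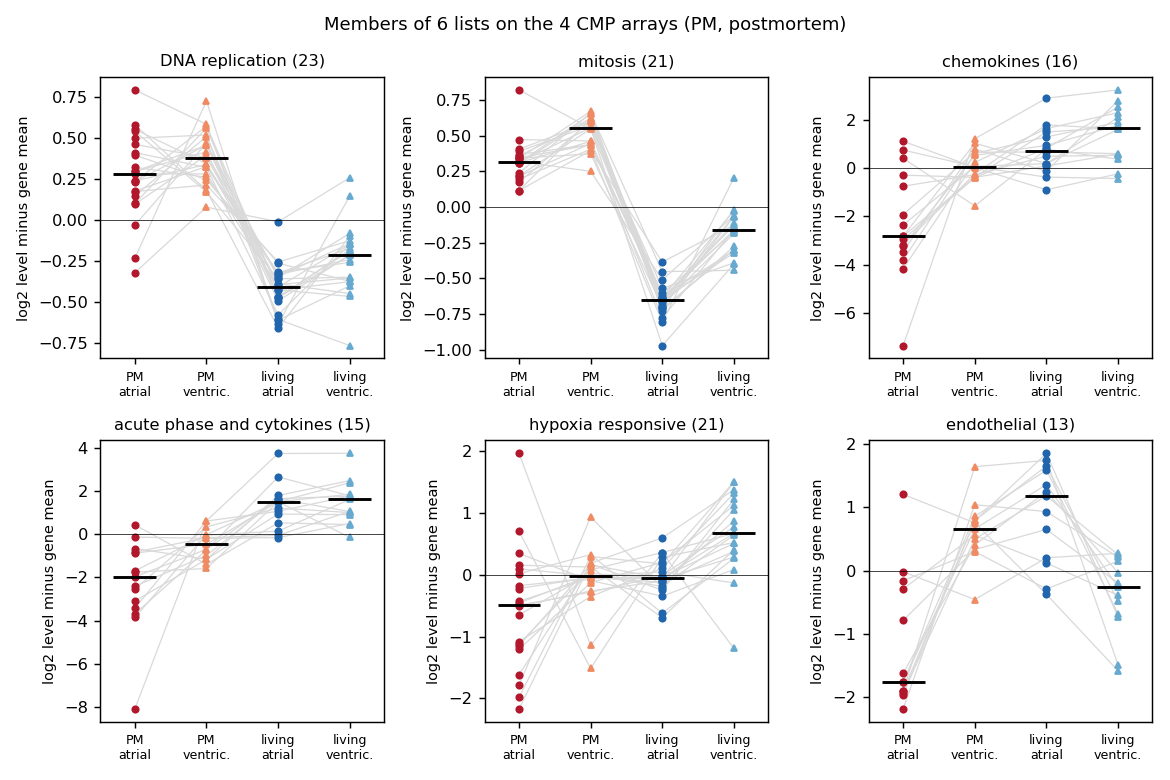
Each tested member of 6 lists on the postmortem (PM) and living CMP arrays, as its log2 level minus its mean over the 4 arrays (vertical axis, scaled per panel). Black bars are medians and grey lines join the values of a gene. By their medians, DNA replication and mitosis genes are higher on both postmortem arrays, chemokines are lowest on the postmortem atrial array, and endothelial genes are low on the postmortem atrial and living ventricular arrays.

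Hypoxia-responsive genes and glycolytic genes were lower in both pairs for most members. The lists overlap, with Hk2 a member of both, so their counts are not separate results. Of 21 hypoxia genes, all tested, 15 were lower and 3 higher in both pairs, with a median of -0.77 (-0.41 atrial and -0.65 ventricular), while both postmortem arrays lay below both living arrays for 7. Hk2, the inducible hexokinase, was at -1.15 and 1.21 on the postmortem and 1.62 and 2.40 on the living arrays (difference -1.98 ± 0.44, adjusted p = 0.259). Ddit4, an inhibitor of growth signalling under low oxygen, was at 3.90 and 6.18 against 6.06 and 7.39, so that the states overlapped (difference -1.69 ± 0.30, adjusted p = 0.206). P4ha2, a collagen hydroxylase, differed by -1.45 ± 0.24 (adjusted p = 0.194, pairs -1.56 and -1.34), Bnip3, which marks mitochondria for removal, by -1.43 ± 0.30 (adjusted p = 0.258, pairs -1.19 and -1.67), and Pdk1, which keeps pyruvate out of mitochondria, by -1.33 ± 0.28 (adjusted p = 0.257, pairs -1.41 and -1.25).

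Of 19 glycolytic genes, all tested, 12 were lower and none higher in both pairs, with a median of -0.31 (-0.11 and -0.57). Slc16a3, which exports lactate, was at 2.78 and 3.90 against 4.58 and 6.49 (difference -2.20 ± 0.41, adjusted p = 0.216), and Pfkl, a phosphofructokinase, differed by -0.89 ± 0.20 (adjusted p = 0.258, pairs -0.82 and -0.97). For the 26 respiratory chain genes the median was 0.03, with 11 higher and 7 lower in both pairs.

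Promoter sequences were taken from RefSeq (build GRCm38.p6, 250 bases before to 50 after each start) and searched on both strands for letters bound by factors of these pathways. A match is a description of the sequence, and no binding was measured. The NF-kappa B motif, written as 3 G, any 3 bases and then TTCC, was found in 6.31% of 27025 genes with a window, in 4 of 10 chemokines, 4 of 12 acute phase genes and 5 of 11 NF-kappa B pathway genes with a window. The following stretches lie before the starts of chemokine and cytokine genes with large differences, with the matching letters in capitals, at chr5:90891150-90891209, chr5:30013045-30013104 and chr5:90903796-90903855, all on the plus strand:
Cxcl1: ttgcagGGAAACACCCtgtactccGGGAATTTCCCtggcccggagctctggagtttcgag
Il6: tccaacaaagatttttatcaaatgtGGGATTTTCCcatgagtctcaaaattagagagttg
Cxcl2: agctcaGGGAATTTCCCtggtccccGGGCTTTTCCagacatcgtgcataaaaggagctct

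The letters TTTGAA, known as the cell cycle homology region, were found in 20.2% of all genes, in 13 of 19 mitosis genes and in 3 of 19 DNA replication genes. CCAAT was found in 41.1% of all genes and in 17 of 19 mitosis genes, and also in 12 of 19 DNA replication and 12 of 19 hypoxia genes. The E2F letters TTTNGCGC were found in 1.57% of all genes, in 8 of 19 DNA replication genes and in 1 of 19 mitosis genes. Examples before the starts of Top2a and Cdc20 (mitosis) and Mcm5 (replication) lie at chr11:99024190-99024237 and chr4:118437344-118437386, both on the minus strand, and chr8:75109335-75109392 on the plus strand:
Top2a: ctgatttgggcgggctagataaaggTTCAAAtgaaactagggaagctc
Cdc20: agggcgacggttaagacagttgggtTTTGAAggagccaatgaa
Mcm5: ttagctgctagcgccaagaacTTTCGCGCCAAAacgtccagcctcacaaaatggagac

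The core of the hypoxia response element, ACGTG, was found in 21.8% of all genes, in 15 of 19 hypoxia genes and in 12 of 19 glycolytic genes. Those lists overlap. It was also found in 8 of 19 mitosis and 6 of 19 DNA replication genes. The stretch before Hk2 lies at chr6:82774477-82774531 on the minus strand:
Hk2: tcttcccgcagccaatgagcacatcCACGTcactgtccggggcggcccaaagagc

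Of growth factor and surface genes, those named here had differences to both sides, and none passed the test. Igf1, insulin-like growth factor 1, was at -0.53 and 1.15 on the postmortem and 1.6 and 2.95 on the living arrays (difference -1.97 ± 0.20, adjusted p = 0.0675). The other tested Igf1 probes differed by -1.91, -1.87, -1.43 and -0.17, so 1 of them was near 0. Fgf9, a secreted fibroblast growth factor, was well above background on 1 of 2 postmortem arrays, the ventricular one, at -4.46, and was at -1.20 and -0.86 on the living arrays. Fgf2, the gene of the bFGF that was also added to the medium, differed by -1.31 ± 0.30 (adjusted p = 0.269, pairs -1.33 and -1.29) and Fgf7, which acts on epithelia, by -1.31 ± 0.33 (adjusted p = 0.308, pairs -1.28 and -1.34). Of the 16 FGF pathway genes tested 8 were higher and 5 lower in both pairs. Bmp4, a BMP ligand, was at 6.20 and 4.64 against 4.85 and 3.13 (difference 1.43 ± 0.21, adjusted p = 0.150), and Sdc4, a syndecan, at 1.68 and 1.43 against 2.76 and 2.66 (difference -1.15 ± 0.22, adjusted p = 0.234).

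The stromal surface genes had a median difference near 0. The 16 genes had a median of 0.11, with 8 higher and 4 lower in both pairs. Nt5e, which encodes the stromal marker CD73, was the member with the largest difference, at -2.60 and -1.21 on the postmortem and -0.31 and 1.61 on the living arrays (difference -2.55 ± 0.26, adjusted p = 0.0675). Alcam, or CD166, was at 3.97 and 0.84 against 1.04 and -0.89 (difference 2.33 ± 0.32, adjusted p = 0.135). Pdgfra, a growth factor receptor of fibroblasts, differed by -0.88 and -0.90 in the pairs, and Thy1, or CD90, by 1.16 and 0.09. For 20 collagens the median was -0.08, but the pairs went to opposite sides (-0.24 atrial and 0.23 ventricular). Of these collagens 12 lay in opposite directions, against 36.2% of all genes tested. The median was -0.14 for 15 fibroblast genes. Of the fibroblast genes, 8 were lower and 2 higher in both pairs. Among the lower ones were Lum, a collagen-binding proteoglycan (pairs -0.38 and -2.41), and Fbln1, a fibulin of the matrix (pairs -1.32 and -1.27). For matricellular and elastic fibre proteins (25 genes) the median was -0.31, with 13 lower and 4 higher in both pairs. Of the 23 measured on all 4 arrays 11 were lower and 4 higher. Among these Mfap4, a microfibril protein, was at 1.41 and 4.54 against 6.41 and 6.62.

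Of 23 antioxidant genes 13 were lower and 6 higher in both pairs. Sod2, the mitochondrial superoxide dismutase, differed by -1.89 ± 0.38 (adjusted p = 0.246, pairs -2.34 and -1.45), Gpx3, a secreted glutathione peroxidase, by -1.40 ± 0.28 (adjusted p = 0.245, pairs -1.37 and -1.43), and Hmox1, which degrades haem, by -0.90 ± 0.17 (adjusted p = 0.214, pairs -1.03 and -0.77). Another tested probe of Hmox1 differed by -0.08, so its probes disagreed. The 19 genes of heat, cold and unfolded protein stress had a median of 0.08.

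A last question was whether the postmortem difference depended on the chamber. In limma's fit with the interaction of source state and chamber, 458 of 19011 genes passed an adjusted p of 0.05 (2.41%). The spread in that fit comes from the fetal pair alone, with 1 residual degree of freedom. That pair is 1 wild type and 1 transgenic whole heart, so the interaction p-values hold no spread between cultures. Each state in each chamber was 1 culture on 1 array. A passing gene may therefore reflect the chamber or an unusual culture, and the fit has no means to separate them. The postmortem atrial array stood apart, as given above. After quantile normalization no gene passed, although 1042 had an unadjusted p under 0.05, and without limma's trend 110 passed, so single calls here depend on the processing. The ventricular minus atrial pair difference was above 0 for 310 of the 458 genes and below 0 for 148. The lists with at least 4 passing genes were endothelial (8 of 13), chemokine (7 of 16), acute phase (6 of 15), immediate early (6 of 17), matricellular and elastic fibre (6 of 25), Wnt (5 of 18), IGF and imprinted (5 of 17) and cardiac regulator genes (4 of 12).

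Most endothelial genes took opposite directions in the pairs. The 13 tested had a median of -3.11 (atrial pair) and 0.91 (ventricular pair), and 10 of them lay in opposite directions. Emcn, the endothelial surface protein endomucin, was at -3.64 on the postmortem atrial and -0.10 on the postmortem ventricular array, and at 0.00 on the living atrial and -3.23 on the living ventricular array. Its pair differences were -3.64 and 3.13 (interaction adjusted p = 2.76e-15). Cdh5, the cadherin of endothelial junctions, was at -1.25, 1.17, 1.87 and 0.25 in the same order (adjusted p = 3.31e-09). Esam, an adhesion molecule of those junctions, was at -2.97, -0.21, 0.65 and -1.48 (adjusted p = 7.52e-11). Emcn, Cdh5 and Esam were lowest on the postmortem atrial array, and on the ventricular side they were higher in the postmortem than in the living culture. Members with the same direction in both pairs, named after their values were seen, were Flt1, Eng and Kdr. Flt1 was highest on the postmortem atrial array, at 3.04 (pairs 1.58 and 2.34). Eng was slightly higher in both pairs (0.13 and 0.15) and Kdr lower in both (-0.22 and -0.73). Another tested Kdr probe differed by -2.01 on average of both pairs, against -0.47 for this one.

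Robo4, a guidance receptor of vessels, had pair differences of -2.87 and 0.44, and Egfl7, a secreted endothelial factor, -3.11 and 0.25. Tek, the angiopoietin receptor, was not well above background on the postmortem atrial array, and was at -1.65, -1.76 and -2.48 on the postmortem ventricular, living atrial and living ventricular arrays. In a culture of mixed cells fewer cells of a type and less RNA per cell cannot be told apart. Of the 4 endothelial markers, 3 were measured on the postmortem atrial array and all 4 on the other CMP arrays. Their median level was -1.99 on the postmortem atrial, -0.22 on the postmortem ventricular, 0.29 on the living atrial and -0.94 on the living ventricular array. The part of endothelial cells in the other differences was not tested.

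Lyl1, a transcription factor of blood and endothelial cells, had pair differences of -3.96 and 1.98 (interaction adjusted p = 8.23e-15). Heyl and Hey1, targets of Notch, had -1.98 and 2.24, and -1.83 and 2.48. Itga4, an integrin subunit, had -1.96 and 1.97, and Aldh1a3, which makes retinoic acid, had -1.87 and 2.42. Upk3b, a mesothelial marker, had -1.90 and 2.40, and Dpysl4 had -2.87 and 1.88. These genes were chosen for their opposite pair differences, so their interaction p-values are a description.

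**Figure D5:**
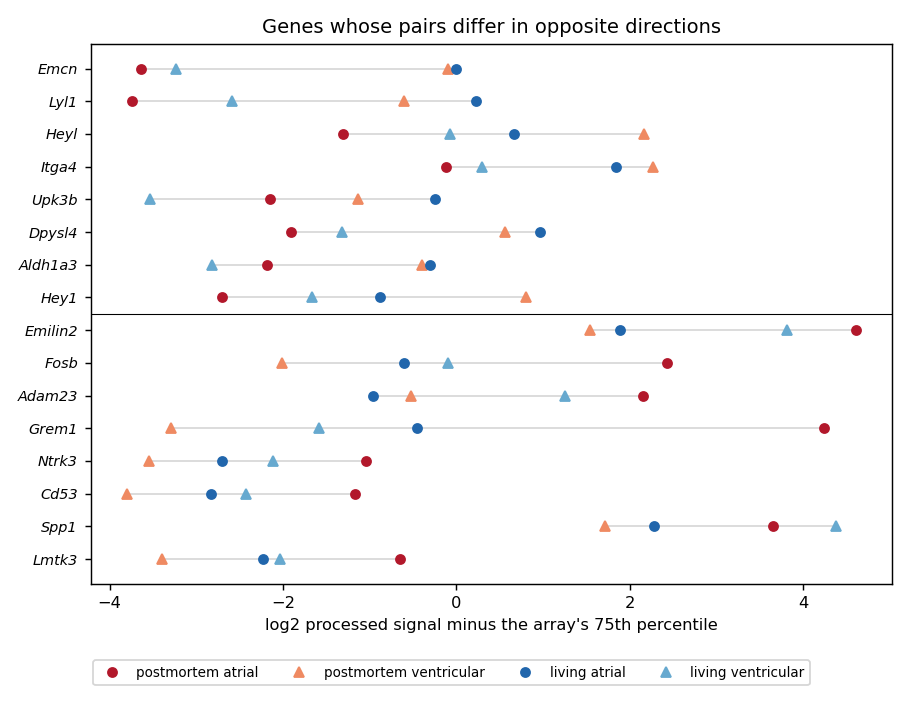
Level on each CMP array (horizontal axis, log2 processed signal minus the 75th percentile of the array) for the 8 genes in each orientation with the largest opposite pair differences. Red and orange are postmortem, blue is living, circles are atrial and triangles ventricular. Among the genes with the higher ventricular pair difference the postmortem ventricular and living atrial arrays lie to the right, and among those with the higher atrial one the postmortem atrial array is highest for all genes but Spp1.

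In the other orientation, genes were higher in the atrial and lower in the ventricular pair. Grem1, a BMP antagonist, was at 4.24 on the postmortem atrial array and at -3.29, -0.46 and -1.59 on the postmortem ventricular, living atrial and living ventricular arrays (interaction adjusted p = 2.21e-09). Emilin2, an elastic fibre protein, had pair differences of 2.72 and -2.27 (interaction adjusted p = 1.44e-17). Fosb, an immediate early transcription factor, had 3.04 and -1.91, Adam23, a membrane protein of the ADAM family, 3.11 and -1.77, and Spp1, or osteopontin, 1.37 and -2.66. Ntrk3, a neurotrophin receptor, had 1.66 and -1.43 (interaction adjusted p = 0.0565), Cd53, a tetraspanin of leukocytes, 1.65 and -1.37 (adjusted p = 0.126), and Lmtk3, a kinase, 1.58 and -1.37 (adjusted p = 0.0929). The other Ntrk3 probes differed by 1.27 and 1.32 on average of both pairs, against 0.12 for this one.

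Immediate early genes as a list had a median of 1.28 (atrial pair) and -0.66 (ventricular pair). Fos was at 4.98 on the postmortem atrial array and at 0.24, 1.43 and 1.44 on the others in the same order (interaction adjusted p = 2.15e-11). The 21 interferon response genes had medians of -1.10 and 0.48, with 17 in opposite directions, and 2 of them passed the interaction test. The 11 MHC class I genes had -0.87 and 0.09, and none passed it. The 11 Notch pathway genes had -1.43 and 0.62, and 2 passed.

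Of the 12 heart development factors tested, the 4 that passed the interaction test were lowest on the postmortem atrial array. Others, named after their values were seen, were highest there, such as Gata5, at 1.70 against 0.53, 0.93 and 0.98, Gata6, at 4.06 against 2.92, 3.52 and 2.90, and Mef2c, at -1.71 against -2.78, -3.53 and -3.37 (postmortem ventricular, living atrial, living ventricular). Tbx20 was at 2.11 there against 5.39 on the postmortem ventricular array and 4.95 and 4.88 on the living ones (interaction adjusted p = 1.44e-07). Gata4 was at 1.32 against 3.68, 3.65 and 3.33 (adjusted p = 5.94e-05). Nkx2-5 was at -2.69 against -1.28, -0.48 and -1.86, and Tbx5 at -1.76 against -0.57, 0.98 and -1.03, both with an interaction adjusted p under the threshold. Tcf21, a factor of fibroblasts and epicardium, was at 0.81 against 3.64, 3.84 and 3.62 (adjusted p = 1.07e-05). Kit, the receptor of stem cell factor, was not well above background on the postmortem atrial array and was at -1.35, -0.38 and -2.43 on the others. Tnnt2, cardiac troponin T, differed from this pattern, at 4.02, 2.73, 4.10 and 0.11, so that the living ventricular array was the low one.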

How the data were processed

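RNA of 7 mouse samples was measured on single-colour Agilent arrays. The authors deposited scanner tables of linear intensity (raw mean, local background and a processed signal, background-subtracted and detrended) made with Agilent's Feature Extraction software, which the file headers give as 10.7.3.1 and the submitters' processing notes as 9.5.3. The authors also deposited a table of log2 values, which for 100% of probes was the log2 of the processed signal less 1 constant per array, with column medians of -4.25 to -3.60. Its steps are not given in the sources used here.

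Spots of a probe were averaged and 11 probes with outlier flags left out, which kept 55670. Per array, 46.5% to 52.5% of probes passed the background mark and none was saturated. Precision is limited by the number of arrays. A gene took its probe of highest mean and was tested if well above background on every array of 1 state. limma 3.58.1 in R 4.3.3 (eBayes with a trend, Benjamini-Hochberg adjustment) was fitted to all 7 arrays with terms for state, tissue and CMP chamber (2 residual degrees of freedom), and again with 4 CMP cell means for the interaction (1 residual degree of freedom). The scripts were tested on simulated data.

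Named genes were those passing the test; the 14 highest and 14 lowest by the smaller pair difference; 8 per orientation with opposite pairs; the 6 largest bounds per direction; up to 5 members per list; and cell type markers. A few results under these rules are not reported here. The members and lists were chosen with earlier results of these data known, and none of the list counts is a test. Scaling, background correction, filter, probe choice, eBayes options and left-out arrays were varied, 18 alternatives in all.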

Additional observations from a re-analysis of the deposited data

Results flagged for a closer look

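The postmortem difference depended on the chamber for 458 genes by limma's interaction test, which takes its spread from the fetal pair alone, and the values below are the ventricular minus the atrial pair difference on the log2 scale for named genes past that test. After quantile normalization none of them passed. Tek, Kit and Saa3 were not well above background on the postmortem atrial array, nor Dlk1 and Kcnn4 on the living arrays, so the values of these 5 genes rest on signal at background and give no measured size. The genes named for opposite pairs were chosen by this measure. Endothelial genes were Emcn at 6.77, Esam at 4.90, Cdh5 at 4.03, Tek at 3.96, Egfl7 at 3.36 and Robo4 at 3.30. Of regulators and receptors, Lyl1 was at 5.95, Kit at 4.70, Hey1 at 4.31, Heyl at 4.22, Tbx20 at 3.34, Tbx5 at 3.20, Tcf21 at 3.04, Nkx2-5 at 2.79 and Gata4 at 2.68. Dpysl4 was at 4.76, Upk3b at 4.30, Aldh1a3 at 4.29, Itga4 at 3.93 and Tnnt2 at 2.69.

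Secreted inflammatory genes had the lower value in the atrial pair, with Saa3 at 8.70, Cxcl5 at 8.22, Lcn2 at 3.83, Ccl7 at 3.79, Cxcl1 at 3.74 and Il6 at 2.97. The matrix gene Mfap4 was at 2.91.

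Negative values, where the atrial pair difference was the higher one, were found for Grem1 at -6.39, Dlk1 at -5.64, Kcnn4 at -5, Emilin2 at -4.99, Fosb at -4.95, Adam23 at -4.88, Fos at -4.76 and Spp1 at -4.03. The postmortem atrial array was the highest of the 4 CMP arrays for all of these but Spp1.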

How the results depend on the processing

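The 20 calls (1 higher, 19 lower) became 47 (7, 40) after normexp, 53 (13, 40) with no filter on dim probes, 2 (0, 2) with no chamber term, and 0 with the 4 CMP arrays alone, without limma's trend or without either fetal array; with every probe 3 were higher. Leaving out 1 CMP array fits the other 3 exactly, so the spread comes from the fetal pair alone, and gave 302 calls without the living atrial, 313 without the postmortem atrial, 1408 without the living ventricular and 1410 without the postmortem ventricular array (136 to 510 higher, 162 to 911 lower); with the fetal arrays the range is 0 to 1410 (0 to 510, 0 to 911). All 20 calls remained after normexp, with no filter and with any CMP array left out. The 458 interaction calls became 293 with the percentile over probes detected on all arrays, 110 without the trend and 0 after quantile normalization. Pair agreement was r = 0.368 with the mean of a gene's probes, 0.349 for genes measured on all 4 CMP arrays and 0.147 with no filter; the same-sign share was 63.1% with the mean of probes, 66.4% with no filter, 62.7% after normexp and 64.6% with the detected percentile. Genes 2-fold apart the same way numbered 241 after normexp and 327 when measured on all 4; opposite ones 28 after normexp and 430 with no filter. Except for the effect of fewer arrays or genes, the cause was not tested. None of 1497 alternative values of 89 gene differences, or 238 of interactions, changed sign. These 89 genes had the same sign in both pairs. Leaving out 1 CMP array leaves the difference of the other pair, so those settings could not change it. Scaling moved the median of all genes to between -0.034 and 0.007. Chemokine, acute phase, NF-kappa B, hypoxia, glycolysis, DNA replication and mitosis medians kept their sign in the 11 settings run for lists. Endothelial, interferon, immediate early, MHC, cardiac regulator and collagen medians changed sign without an atrial array and Notch medians without a ventricular one. The collagen median also changed sign with the mean of a gene's probes. Agreement without a CMP array, and the interaction without a CMP or fetal array or with the CMP arrays alone, could not be fitted. The labels give no replicate numbers; the arrays were paired by chamber, which is a term of the fit, and the counts without it and with the 4 CMP arrays alone are given above. Values near background are the least precise.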
